A study of Homo sapiens with 8 samples.

Results

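The genes described here encode the large-conductance potassium channels of the Slo family and the beta subunits that assemble with the BK channel. They comprise 7 genes, KCNMA1, KCNU1, KCNT2 and KCNMB1 to KCNMB4, represented by the 15 probe sets whose platform annotation names one of them and no other gene, out of 54675 probe sets and 19775 genes in the series. The set was drawn up with earlier results of the same arrays known. KCNMA1 and KCNU1 had stood out for low values with dexrazoxane and KCNMB1 for a high value with doxycycline, so those differences are given as descriptions, with no p-value. The calls that the fit over all probe sets gives them stand only among the processing alternatives, and nothing is read from them.

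Expression was measured on 8 Affymetrix human arrays with RNA from HTETOP cells, a human fibrosarcoma line derived from HT1080 in which topoisomerase II alpha (TOP2A) is made under tetracycline control. Dexrazoxane, a catalytic inhibitor of topoisomerase II, was given at 100 µM for 24 h (3 arrays) and compared with its own vehicle (3 arrays). Doxycycline, which switches TOP2A off in these cells, was given at 1 µg/ml for 24 h (1 array) and compared with its own vehicle (1 array). All groups, vehicles included, carry the regulated TOP2A, and each array was hybridised with RNA pooled from 3 passages (15 to 17 for the doxycycline pair). Whether the numbered arrays stand for separate cultures is not stated in the labels, and the p-values therefore cover the array-to-array spread alone, part of which may be technical.

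BK channels open to membrane depolarisation and to intracellular calcium, and let potassium leave the cell at an unusually high rate. KCNMA1 encodes the pore-forming alpha subunit (Slo1), which forms tetramers. The beta subunits are membrane proteins that change the calcium sensitivity and the gating of the pore: KCNMB1 is best known from smooth muscle, KCNMB4 from neurons, and KCNMB2 and KCNMB3 include forms that inactivate the channel. KCNU1 encodes Slo3, the pH-sensitive channel of sperm, and KCNT2 encodes a sodium-activated channel (Slick, Slo2.1). In many tumour lines BK channels are studied for their part in cell volume and migration.

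The arrays measured transcripts at probe sets, not channel protein, and probe sets differ in how well they bind, so levels are not compared between probe sets. All values are log2 expression from RMA. The median of all probe sets was 4.81 on the doxycycline array and 4.82 on its vehicle array, and ran from 5.49 to 5.57 on the dexrazoxane arrays and from 5.50 to 5.56 on their vehicle arrays, so levels are not compared between the treatments. A low-value filter at the 40th percentile of the probe set means over the dexrazoxane and vehicle arrays lay at 5.03. Of the 15 probe sets 9 passed it: 4 of 4 for KCNMA1, 1 of 1 for KCNU1, 1 of 2 for KCNMB1 and 3 of 3 for KCNMB4. KCNMB2, KCNMB3 and KCNT2 had 0 of 2, 0 of 1 and 0 of 2 over it, so these genes were dim on the arrays. TOP2A itself had log2 values of 6.02 on the doxycycline array and 11.98 on its vehicle array (201291_s_at), and averaged 10.88 ± 0.339 with dexrazoxane and 12.45 ± 0.0861 with vehicle (SD, n = 3 each). Of the mesenchymal markers, which bear on the fibrosarcoma label, 10 of 10 measured genes were over the filter. So were 5 of 8 epithelial and 3 of 5 leukocyte genes, so the filter alone did not set the lists apart. Among these were KRT8 (10.21 with dexrazoxane, 9.70 with vehicle), KRT18 (11.42 with dexrazoxane, 11.16 with vehicle) and LCP1 (10.81 with dexrazoxane, 10.90 with vehicle). The epithelial adhesion genes CDH1 (3.81 with dexrazoxane, 3.84 with vehicle) and EPCAM (3.32 with dexrazoxane, 3.24 with vehicle) lay under the filter. The leukocyte gene PTPRC (3.85 with dexrazoxane, 3.84 with vehicle) did so too.

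KCNMA1 lies on chromosome 10 of GRCh38.p14, from 76869602 to 77637808, and at 768 kb is the longest of the 7 genes. The RefSeq promoter table held 8 windows for 5 of the 7 genes, among them 2 starts for KCNMA1 that are 287 kb apart. The 250 bases before both KCNMA1 starts are shown because this gene carries the largest differences and because its probe sets did not move as one, and those before the KCNMB1 start because KCNMB1 had the largest doxycycline difference. Each is written 5′ to 3′ on the minus strand, and capitals mark GGGCGG or its reverse complement CCGCCC (the GC box) and TGANTCA (the form bound by AP-1 factors), a motif searched after the sequence had been seen.
KCNMA1 outer start, chr10:77637809-77638058: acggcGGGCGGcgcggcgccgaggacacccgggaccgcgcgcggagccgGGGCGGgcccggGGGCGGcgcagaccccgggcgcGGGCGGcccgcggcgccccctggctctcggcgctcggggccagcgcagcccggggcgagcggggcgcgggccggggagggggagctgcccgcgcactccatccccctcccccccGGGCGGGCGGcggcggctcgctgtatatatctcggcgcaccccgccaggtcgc
KCNMA1 inner start, chr10:77350762-77351011: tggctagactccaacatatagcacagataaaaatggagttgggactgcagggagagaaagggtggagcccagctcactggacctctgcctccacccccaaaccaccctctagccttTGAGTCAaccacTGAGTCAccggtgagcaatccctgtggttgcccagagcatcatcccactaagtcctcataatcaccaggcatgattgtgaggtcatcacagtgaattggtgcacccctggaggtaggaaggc
KCNMB1, chr5:170389368-170389617: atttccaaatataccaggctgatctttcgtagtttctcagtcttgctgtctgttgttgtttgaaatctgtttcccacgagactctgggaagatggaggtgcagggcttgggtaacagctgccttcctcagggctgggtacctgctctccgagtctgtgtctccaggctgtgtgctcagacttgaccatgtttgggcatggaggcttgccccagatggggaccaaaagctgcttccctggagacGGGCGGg
The outer KCNMA1 window was 85.6% G and C and held 46 CpG dinucleotides, a number reached by 0.413% of the 35116 windows in the table, whose median was 11. It held 6 GC boxes over both strands, with 1 overlap, and 2.22% of all windows held as many. The inner KCNMA1 window had 53.6% G and C, 1 CpG and 0 GC boxes, but it held TGANTCA at 2 places, against 6.57% of all windows with at least 1 and 0.402% with at least 2. The KCNMB1 window had 54% G and C, 5 CpG and 1 GC box. The windows of KCNMB2, KCNMB3 and KCNT2 held 1 to 13 CpG, and 1 of the 3 KCNMB3 windows held TGANTCA once. These are matches of letters and say nothing of which factor is bound or which start is used in these cells.

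KCNMA1 was lower with dexrazoxane at each of its 4 probe sets and in each of the 3 pairs. At 221584_s_at the log2 values were 9.05, 8.86 and 9.06 on the dexrazoxane arrays, against 10.08, 10.24 and 9.87 on the vehicle arrays. The groups did not overlap, and the highest dexrazoxane array lay well under the lowest vehicle array. The mean difference was -1.07 ± 0.12 (SE from the paired fit, n = 3 pairs), or 2.10-fold lower, with -1.03, -1.38 and -0.81 in pairs 1, 2 and 3.

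The other KCNMA1 probe sets gave differences of similar or smaller size. At 228414_at the values were 5.95, 4.95 and 4.70 with dexrazoxane, against 6.82, 6.00 and 5.93 with vehicle. The difference was -1.05 ± 0.10 (SE from the paired fit, 0.34 without the pairs). Here the first array of both groups was the brightest, so the groups overlapped although every pair was lower. At 221583_s_at the values were 5.48, 5.62 and 5.92 with dexrazoxane, against 5.99, 6.66 and 7.05 with vehicle. The difference was -0.89 ± 0.13 (SE from the paired fit, 0.25 without the pairs). At this probe set the first array of both groups was the dimmest, the reverse of 228414_at, and the groups did not overlap. At 214921_at the values were 5.21, 5.05 and 5.03 with dexrazoxane and 5.36, 5.25 and 5.22 with vehicle, a difference of -0.18 ± 0.08 (SE). That probe set sat just above the filter and showed the smallest difference of the 4. Averaged over its 4 probe sets KCNMA1 differed by -0.80, and by -0.64, -0.92 and -0.84 in the pairs. The files do not give the probe positions, so the probe sets were not assigned to transcripts or to a start.

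KCNU1 showed a difference close in size. It lies on chromosome 8 from 36784374 to 36936125 and is read by 1 probe set (237273_at), so no second one can check it. Its values were 6.46, 6.66 and 6.68 with dexrazoxane, against 7.35, 7.47 and 7.64 with vehicle. The groups were well apart and every array of one lay under every array of the other. The difference was -0.89 ± 0.08 (SE), or 1.85-fold lower, with -0.89, -0.81 and -0.97 in the pairs. Of 8 genes of spermatids and sperm, the cells in which Slo3 is known to act, 5 passed the filter. In the paired fit 0 were called, against 0.157% of all probe sets. ACR, PRM1, TNP1 and ODF1 passed it narrowly, with means of 5.36 to 5.65 with dexrazoxane and 5.35 to 5.75 with vehicle. CATSPER1, which encodes a sperm calcium channel subunit, averaged 8.93 with dexrazoxane and 8.59 with vehicle, while the sperm anchoring protein gene AKAP4 was dim at 4.20 with dexrazoxane and 4.12 with vehicle.

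**Figure D1:**
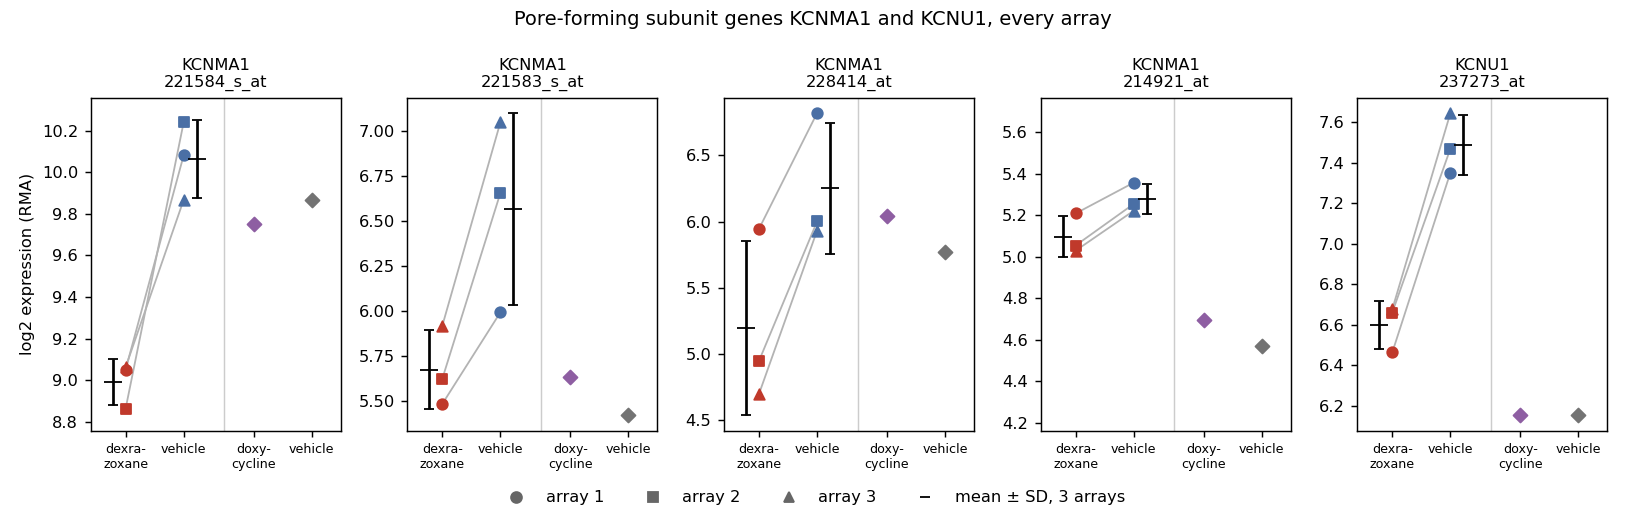
Log2 expression of the 4 KCNMA1 probe sets and the KCNU1 probe set on every array, with dexrazoxane left of its vehicle and doxycycline left of its vehicle. Grey lines join arrays of the same number, and black bars give the mean and SD of 3 arrays. All 15 lines go up toward vehicle, and only 228414_at has overlapping dexrazoxane and vehicle arrays. Each panel has its own scale.

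The beta subunits showed no comparable shift with dexrazoxane. KCNMB4, with the most probe sets of the 4 beta subunit genes, had 6.19, 6.13 and 6.12 with dexrazoxane, against 6.23, 6.23 and 5.96 with vehicle at 222857_s_at, a difference of 0.01 ± 0.09 (SE). At 235930_at its values were 5.89, 6.43 and 6.10 with dexrazoxane and 6.08, 6.39 and 5.89 with vehicle (0.02 ± 0.10, SE), and at 219287_at they were 5.86, 5.98 and 5.64 with dexrazoxane and 5.47, 5.66 and 5.87 with vehicle (0.16 ± 0.13, SE). The groups overlapped at all 3, and pair 3 ran against pair 1 at each of them.

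KCNMB1 differed little as well. At 209948_at the values were 5.24, 5.26 and 5.45 with dexrazoxane, against 5.29, 5.40 and 5.49 with vehicle, a difference of -0.08 ± 0.08 (SE). All 3 pairs had the lower value with dexrazoxane, by 0.14 log2 units at most, and the groups overlapped. Its second probe set, 1554710_at, was under the filter with a difference of -0.03 ± 0.09 (SE). KCNMB2 differed by -0.07 and 0.02 at its probe sets and KCNMB3 by -0.06, at means of 2.94 to 4.51 with dexrazoxane and 2.92 to 4.56 with vehicle. KCNT2, the sodium-activated relative, had means of 3.02 and 2.84 with dexrazoxane and 2.97 and 2.79 with vehicle at 244455_at and 234103_at, with differences of 0.05 at both. Over the 10 probe sets of the beta subunits and KCNT2 the differences ran from -0.08 to 0.16, the SE from 0.08 to 0.13, and the groups overlapped at all 10. For the 5 dim probe sets of KCNMB2, KCNMB3 and KCNT2, and for KCNMB1 1554710_at, a change could not have been detected if the transcript was not above background. Passing the filter does not show that a transcript was above background, so the same limit may hold for KCNMB4 and KCNMB1 209948_at.

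**Figure D2:**
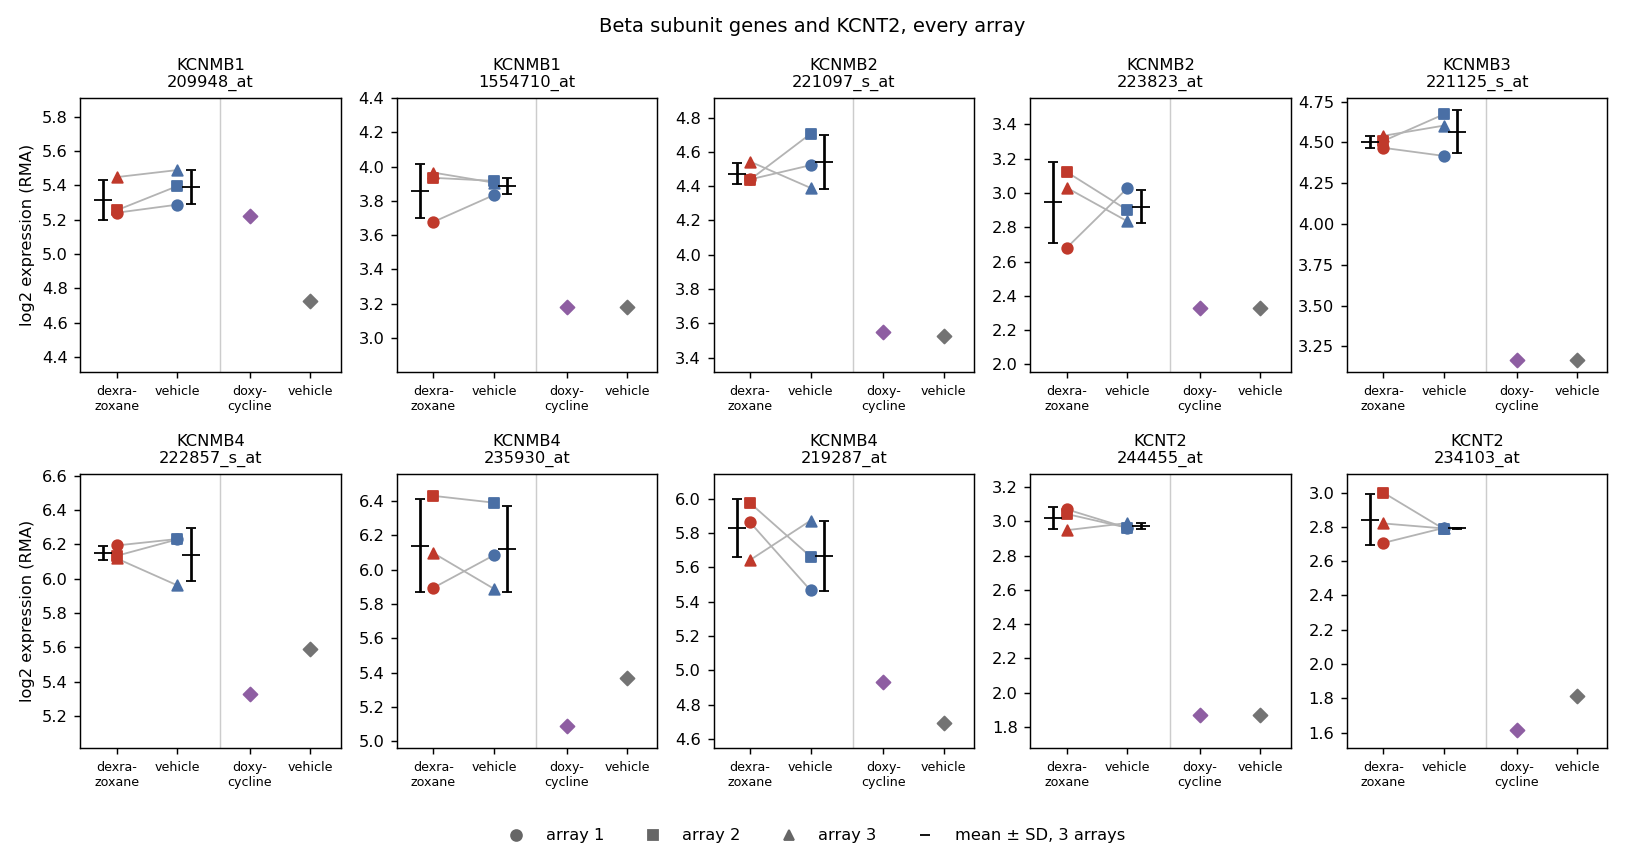
Log2 expression of the 8 beta subunit probe sets and the 2 KCNT2 probe sets on every array, drawn as for the pore-forming genes. The dexrazoxane and vehicle arrays overlap in all 10 panels, and KCNMB1 209948_at has the widest gap between the doxycycline array (5.22) and its vehicle array (4.73). Each panel has its own scale.

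Across all 15 probe sets the arrays of the groups did not overlap at 4, all lower with dexrazoxane (3 of KCNMA1 and the 1 of KCNU1). Among all probe sets 3.9% did not overlap and were lower, 4.61% did not overlap and were higher, and 8.51% did either. Lower in every pair were 6 of the 15 (4 of KCNMA1, KCNU1 and KCNMB1 209948_at), against 17.8% of all probe sets. At least 2-fold lower were 2 of the 15, both of KCNMA1, against 0.00916%, and at least 1.5-fold lower were 4, against 0.24%. Because KCNMA1 and KCNU1 were chosen on this contrast, nothing is read from these counts. The median difference was -0.06 over the 15 probe sets and -4.17e-05 over the table.

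The doxycycline pair gave a different picture for the same genes, with 1 array in each group and therefore no error. The KCNMA1 probe set 221584_s_at had 9.75 on the doxycycline array, against 9.87 on its vehicle array, a difference of -0.12. The other 3 KCNMA1 probe sets were higher with doxycycline. They had 5.63, 6.05 and 4.69 on the doxycycline array, against 5.42, 5.77 and 4.57 on the vehicle array, for 221583_s_at, 228414_at and 214921_at. Their differences were 0.21, 0.27 and 0.12, and the mean over the 4 probe sets was 0.12, so the sign for KCNMA1 depends on the probe set. KCNU1 had the same value of 6.15 on both arrays.

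KCNMB1 had the largest doxycycline difference of the 15 probe sets. At 209948_at it had 5.22 on the doxycycline array and 4.73 on the vehicle array, a difference of 0.49 or 1.41-fold, the value for which it had been taken up. Its other probe set had 3.18 on both arrays, and the mean of the pair of probe sets differed by 0.25. The KCNMB4 probe sets disagreed in sign, with -0.26 and -0.28 at 222857_s_at and 235930_at and 0.24 at 219287_at. At 222857_s_at the values were 5.33 with doxycycline and 5.59 with vehicle, and at 235930_at they were 5.09 with doxycycline and 5.37 with vehicle. KCNT2 differed by 0 and -0.20 and KCNMB2 by 0.02 and 0, and KCNMB3 had 3.17 on both arrays.

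No probe set of the 7 genes reached 1.5-fold with doxycycline, while 0.39% of all probe sets did so in either direction, 0.22% higher and 0.17% lower. KCNMB1 209948_at alone was at least 1.3-fold higher, as were 1.81% of all probe sets, and 3.72% passed 1.3-fold in either direction. In all 6 were higher, 4 were lower and 5 had identical values on both arrays, as had 9.63% of the table. Exactly equal values were thus common in this pair and are not read as a measured lack of change. The SD of the doxycycline difference over all probe sets was 0.177, against which a single pair of arrays has to be read. The treatments differ in agent and in the number of arrays, and the difference between their effects was not tested.

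**Figure D3:**
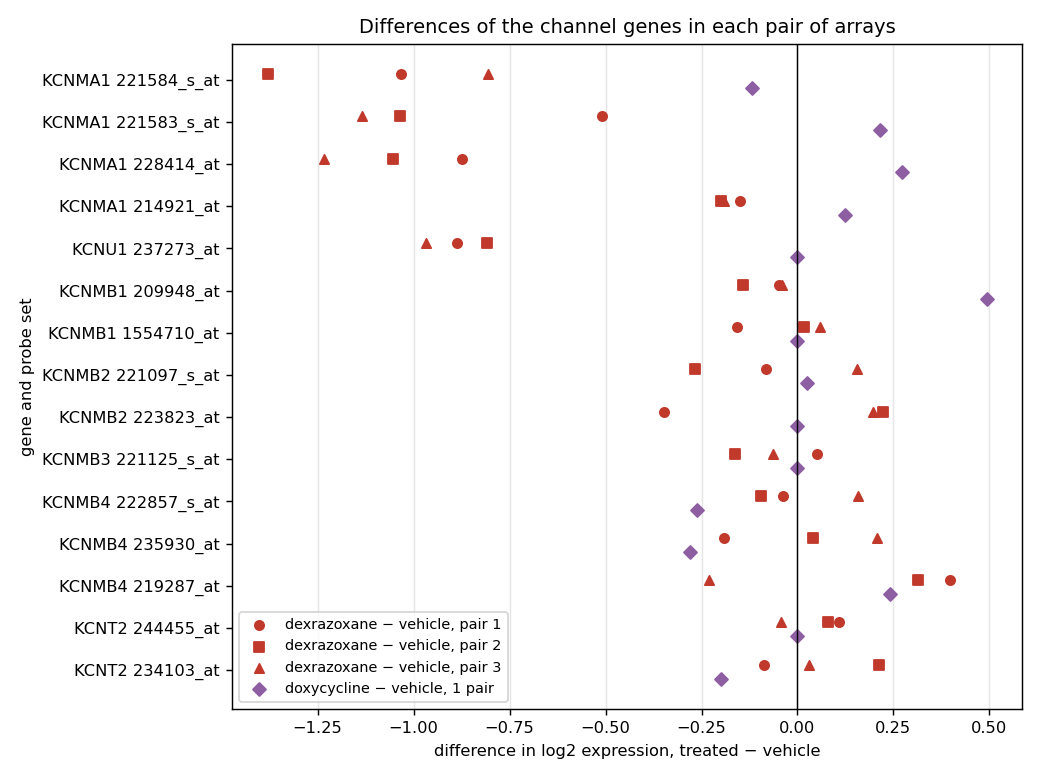
Difference in log2 expression, treated minus vehicle, for each of the 15 probe sets. Red symbols give the 3 dexrazoxane pairs and purple diamonds the single doxycycline pair. The KCNMA1 and KCNU1 red symbols all lie left of 0, between -1.38 and -0.15, while the diamonds run from -0.28 to 0.49.

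Genes that work with BK channels, or belong to the other potassium channel families, were taken from general knowledge as 9 lists with 140 genes, of which 127 were measured by 294 probe sets. The limma fit held 54613 probe sets, with two-sided p-values adjusted after Benjamini-Hochberg and 0.05 as the bound. With same-numbered arrays as pairs it called 1 of the 294 higher and 0 lower, against 0.0751% of all probe sets called higher, 0.0824% lower and 0.157% either way. At an unadjusted p under 0.05 in that fit were 14 higher and 31 lower, or 15.3% of the 294, against 13.2% of all. Without the pairs it called 0 of the 294, against 0.00183% of all, with 16 (5.44%) at an unadjusted p under 0.05, against 3.7% of all. When only probe sets over the filter were tested with pairs, 3 of the 163 list probe sets over it were called. Of all probe sets over the filter 0.381% were called higher, 0.598% lower and 0.98% either way. With 1 probe set a gene as well, at most 1 for each of the 127 genes was tested and 5 were called. Of all probe sets in that setting 2.41% were called higher, 2.42% lower and 4.83% either way. The median over the 294 was 0.002 (log2), against -4.17e-05 over the table, and the differences ran from -0.56 to 0.93.

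The called probe set belongs to FKBP1B, whose protein binds and steadies ryanodine receptors, the calcium release channels that feed BK channels in smooth muscle. FKBP1B had 6.07, 6.00 and 6.49 with dexrazoxane, against 4.93, 5.11 and 5.72 with vehicle. The groups did not overlap, and it rose by 0.93 ± 0.10 (SE, limma paired adjusted p = 0.0254; 1.00 without the pairs). Its call was lost when pair 1 was left out. Among the other 17 genes of the calcium source list, ITPR1, an inositol trisphosphate receptor, differed by -0.35 ± 0.08 at 211323_s_at (limma paired adjusted p = 0.129), with differences of -0.26 to 0.19 at its other 4 probe sets. STIM1, the calcium sensor of the endoplasmic reticulum, differed by -0.24 ± 0.08 at 1557477_at (0.262) and by 0.21 ± 0.09 at 202764_at (0.366), so its probe sets disagreed in sign. RYR2, a ryanodine receptor gene outside the rule for named genes and named after its values were seen, had the lowest difference of the list. At 214044_at, under the filter, it had 4.32, 4.12 and 3.86 with dexrazoxane, against 4.51, 4.71 and 4.73 with vehicle, a difference of -0.55 ± 0.13 (SE, limma paired adjusted p = 0.124). The groups did not overlap there, and its other probe set differed by -0.22. In all 6 probe sets of the list were higher and 8 lower at an unadjusted p under 0.05, 27.5% of 51, against 13.2% of all probe sets.

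Among 39 probe sets of 11 measured regulators of BK channels 0 were called over the whole table. When only probe sets over the filter were tested with pairs, 2 of 27 were called lower, against 0.598% of all probe sets over the filter. At an unadjusted p under 0.05 in the paired limma fit were 2 higher and 7 lower, 23.1% of 39, against 13.2% of all probe sets. PRKCA, the protein kinase C alpha gene, averaged 9.25 ± 0.0359 with dexrazoxane and 9.80 ± 0.0998 with vehicle at 213093_at (SD, n = 3 each). The difference was -0.56 ± 0.08 (SE, limma paired adjusted p = 0.0546 over the table). Its other 4 probe sets differed by -0.38 to -0.01. GUCY1B1, which encodes the beta subunit of the nitric oxide receptor guanylate cyclase, averaged 7.70 ± 0.177 with dexrazoxane and 8.16 ± 0.144 with vehicle (SD, n = 3 each), a difference of -0.46 ± 0.08 (SE, 0.0695). SRC, a tyrosine kinase gene, differed by 0.34 ± 0.09 at 213324_at (0.171), and its other probe sets ran from -0.12 to 0.18.

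The remaining potassium channel lists held 0 called probe sets in the paired limma fit. Among 35 voltage-gated alpha subunit genes 2 probe sets were higher and 4 lower at an unadjusted p under 0.05, 10.2% of 59 against 13.2% of all probe sets, with a median of 0.02. KCNQ5, an M-current channel gene, had the smallest p of that list, at -0.48 ± 0.09 (SE, adjusted p = 0.0885 in limma with pairs), and differed by -0.20 at its other probe set. KCNAB1, which encodes an auxiliary beta subunit of Kv1 channels, differed by -0.41 ± 0.11 at 210471_s_at (0.173), with -0.37 to 0.02 at its other 4 probe sets. KCNN4, the intermediate-conductance calcium-activated channel gene, had 8.59 ± 0.0521 with dexrazoxane and 8.34 ± 0.146 with vehicle (SD, n = 3 each), a difference of 0.26 ± 0.10 (SE, 0.319). KCNT1, which encodes Slack, the closest relative of KCNT2, gave 0.20, 0.14 and -0.14 at its 3 probe sets, with the smallest limma paired adjusted p at 0.358. The inward rectifier list ran from -0.28 to 0.31 and the list of tandem pore domain leak channels from -0.30 to 0.19, with medians of 0.02 for both. In the volume and anion transport list LRRC8E, a subunit of the volume-regulated anion channel, gave 0.45 ± 0.09 and 0.37 ± 0.09 (SE) at 239433_at and 220174_at, with paired limma adjusted p-values of 0.0834 and 0.135. In that list 2 probe sets were higher and 6 lower at an unadjusted p under 0.05, 21.6% of 37 against 13.2% of all. LRRC8D, another subunit gene of that channel, differed by -0.27 ± 0.09 (SE, 0.236), and ANO6, which encodes a calcium-activated lipid scramblase and ion channel, by -0.29 ± 0.10 at 224906_at (SE, 0.253) and by -0.15 at 240947_at.

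**Figure D4:**
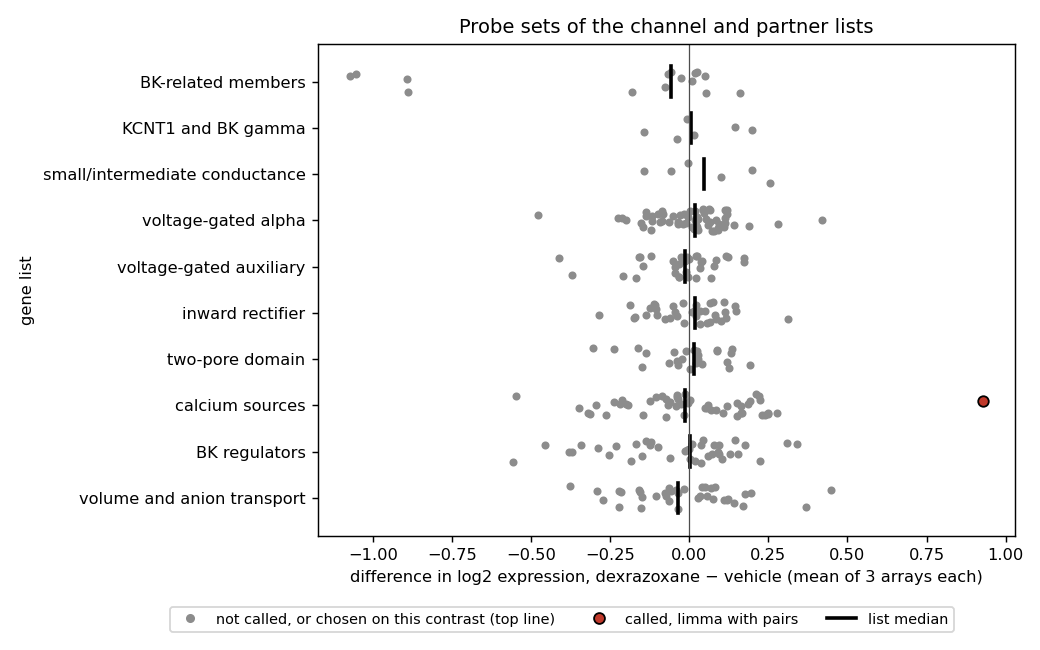
Difference in log2 expression, dexrazoxane minus vehicle, for every probe set of the 7 genes and of the 9 other lists, one point a probe set, jittered up and down. Red marks a probe set called in the paired limma fit (the 7 channel genes, chosen on this contrast, are not marked) and black bars are list medians. The 1 red point is FKBP1B at 0.93, and the list medians lie between -0.06 and 0.05.

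Spans differ widely among the 7 genes, from 14.7 kb for KCNMB1 to 768 kb for KCNMA1. The order by span was KCNMB1, KCNMB3 (27.3 kb), KCNMB4 (68.0 kb), KCNU1 (152 kb), KCNMB2 (308 kb), KCNT2 (383 kb) and KCNMA1. Over all probe sets past the filter the median dexrazoxane difference was -0.09 for genes of 400 kb and more (670 probe sets), -0.06 for 200 to 400 kb (1518), -0.03 for 100 to 200 kb (3475), 0.01 for 20 to 100 kb (12068) and 0.03 below 20 kb (9494). At least 1.5-fold lower were 12 probe sets (1.79%) of the longest class, and 3 of these 12 were of KCNMA1, chosen on this contrast. The share was 1.52% from 200 to 400 kb and 0.46% from 100 to 200 kb, the class of KCNU1, also chosen on this contrast. It was 0.33% from 20 to 100 kb and 0.19% below 20 kb. KCNMB2 and KCNT2 are long but dim, with 0 of 4 probe sets past the filter, so they do not enter the class values. Their differences ran from -0.07 to 0.05. The part of span in the channel differences was not tested. The median doxycycline difference was 0.02 in each of the 5 classes. Probe sets of one gene share its span, so no test was made.

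**Figure D5:**
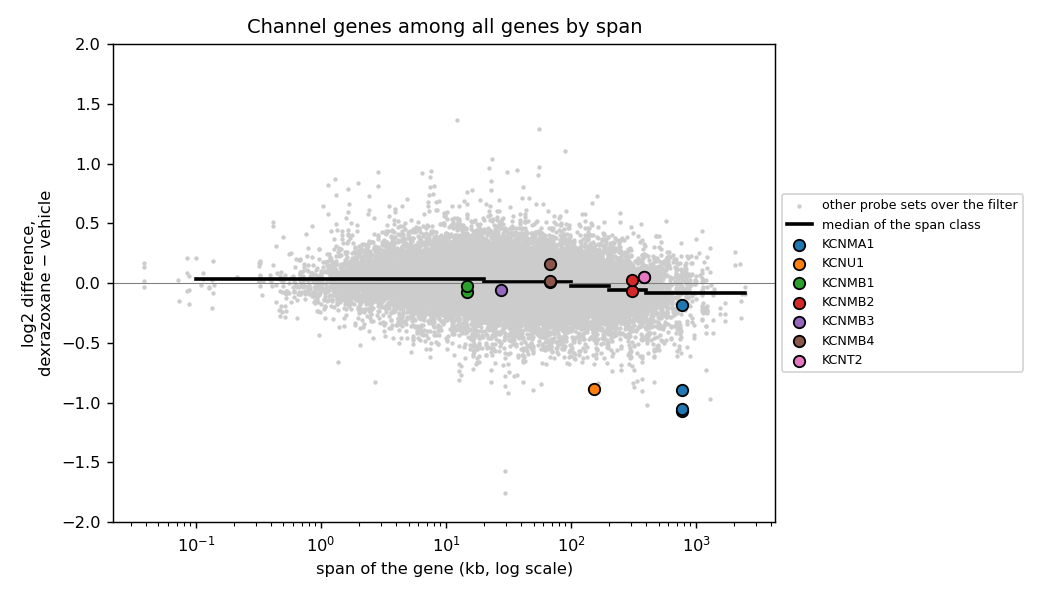
Difference in log2 expression, dexrazoxane minus vehicle, against the span of the gene (log scale). Grey points are probe sets over the filter, black lines the medians of 5 span classes, and coloured points the probe sets of the 7 genes, those under the filter included. The class medians go from 0.03 to -0.09, and KCNMA1 and KCNU1 lie well under them except for 1 KCNMA1 probe set at -0.18.

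The pattern of the KCNMA1 probe set 221584_s_at, taken for its high signal, over the 6 dexrazoxane and vehicle arrays was set against every named probe set over the filter. Most alike by Pearson correlation were SUPT16H (r = 0.994), which encodes a subunit of the histone chaperone FACT, the kinetochore gene ZWILCH (0.989), the noncanonical WNT ligand gene WNT5A (0.989), the divergent transcript DPH5-DT (0.989) and ARHGAP26 (0.987). Their dexrazoxane differences were -0.52, -0.46, -0.40, -0.45 and -0.61, smaller in size than that of the KCNMA1 probe set, and ARHGAP26 spans 459 kb. Each r rests on 6 arrays that share the treatment contrast. KCNU1 correlated with the same probe set at 0.914 and the other 3 KCNMA1 probe sets at 0.738, 0.753 and 0.814. The 5 genes were picked for the highest r, and KCNMA1 and KCNU1 were chosen on this contrast, so no rank is read. The beta subunit probe sets ran from -0.582 to 0.503.

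The smooth muscle, neuron, epithelial, leukocyte, mesenchymal and spermatid markers comprised 47 genes with 101 probe sets. The paired limma fit called 0 of them, with 17 higher and 6 lower at an unadjusted p under 0.05, 22.8% of the 101 against 13.2% of all probe sets. Without the pairs 0 were called, with 6 (5.94%) at an unadjusted p under 0.05, against 3.7% of all. Over the filter were 24 mesenchymal, 15 smooth muscle, 9 neuron, 6 epithelial, 5 spermatid and 3 leukocyte probe sets. When only probe sets over the filter were tested with pairs, 1 of these was called, against 0.98% of all probe sets over it. It belongs to the neuronal splicing factor gene RBFOX3, which is named after its values were seen. It had 5.62, 5.97 and 6.41 with dexrazoxane and 5.08, 5.48 and 5.88 with vehicle, a difference of 0.52 ± 0.08 (SE, limma paired adjusted p = 0.0425 over the filter, 0.0587 over the table), and the groups overlapped. The summed log2 level of 8 smooth muscle genes was 55.0 to 56.1 on dexrazoxane arrays and 53.4 to 55.2 on vehicle arrays, with the master regulator gene MYOCD under the filter (4.95 with dexrazoxane, 5.09 with vehicle). For 8 neuron genes it was 50.9 to 51.2 with dexrazoxane and 49.96 to 50.5 with vehicle, and for 8 epithelial genes 50.4 to 51.5 with dexrazoxane and 49.6 to 49.99 with vehicle, so neither pair of ranges overlapped. The leukocyte sum was 31.3 to 32.3 with dexrazoxane and 31.5 to 32.1 with vehicle, and the spermatid sum 43.5 to 44.8 with dexrazoxane and 43.7 to 44.8 with vehicle. The part of these shifts in the channel results was not tested, nor was the share of living or cycling cells. In bulk RNA, fewer cells with a transcript and less transcript in each cell cannot be told apart.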

How the data were processed

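The deposited values are log2 signals of probe sets, and the submitters' processing notes name RMA, a method that subtracts background, aligns the arrays' distributions and combines the probes of a set. The sources used here do not say if all 8 arrays went through it together. The medians of the doxycycline array and its vehicle (4.81 and 4.82) were not aligned with those of the other arrays (5.49 to 5.57). Of 54675 probe sets, 62 controls were left out. Among the 54613 fitted, 41091 carried 1 gene symbol, 1801 several and 11721 none in the supplied platform annotation. Symbols of 41037 were updated through Entrez identifiers (RefSeq, GRCh38.p14), which also gave spans and promoters.

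Dexrazoxane was set against its vehicle by lmFit and eBayes of limma 3.58.1 (R 4.3.3), without a block as planned and with the replicate number as a block. Deviations from group means correlated at 0.727, 0.450 and 0.530 between same-numbered arrays, so same numbers were treated as pairs, a choice that rests on the arrays themselves. The block leaves each difference as it is, and printed SE come from the paired fit. The procedure was run on simulated data with the pairing built in, so that run is no check of the choice of pairs. The doxycycline pair received no test. The number of arrays limits the precision.

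The members and lists were chosen with earlier results of these data known. Text names all member probe sets, TOP2A, up to 3 genes a list with the smallest paired p over the filter, and the 5 genes most like KCNMA1. Alternatives were filters, centring, 1 probe set a gene, the variance prior, left-out arrays, and joint quantile normalization for doxycycline.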

Additional observations from a re-analysis of the deposited data

How the results depend on the processing

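With the replicate block, calls over the table were 41 higher and 45 lower instead of 0 and 1, calls among the 15 channel probe sets 3 instead of 0, and calls in the 9 lists 1 instead of 0. The channel counts rest on the contrast on which KCNMA1 and KCNU1 were chosen and are no test of them. Block and 40th percentile filter together gave 125, 196, 4 and 3. Block, filter and 1 probe set a gene gave 356, 358, 2 and 5, the 5 being FKBP1B, LRRC8E, PRKCA, GUCY1B1 and KCNQ5. Block and centred arrays gave 49, 61, 4 and 1, and block with trended, robust variance 975, 1169, 4 and 10. Without the block, 1 probe set a gene together with the filter called 0 lower and trended, robust variance 2. Left-out arrays or pairs gave 0 to 91 higher, 0 to 122 lower, 0 to 4 channel and 0 to 1 list probe sets. Testing fewer probe sets alters the adjustment by construction, and for the other settings the cause was not tested.

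With dexrazoxane, KCNMA1 and KCNU1 kept their direction under every alternative run. With arrays left out the differences were -1.43 to -0.65 for the 3 larger KCNMA1 probe sets, -0.24 to -0.14 for 214921_at and -0.96 to -0.81 for KCNU1. The block, the filters and the variance prior leave a difference unchanged by construction. Where the groups do not overlap, leaving out arrays cannot turn its sign. Both genes were chosen on this contrast, so nothing is read from the kept direction. Signs turned with arrays left out at 6 near-zero probe sets: KCNMB1 1554710_at (-0.0799 to 0.0641), KCNMB2 221097_s_at (-0.175 to 0.0354) and 223823_at (-0.0759 to 0.209), KCNMB4 222857_s_at (-0.0817 to 0.0597) and 235930_at (-0.126 to 0.154), and KCNT2 234103_at (-0.0291 to 0.121). The mean of probe sets, added after the data were seen for dexrazoxane, moved KCNMA1 to -0.80; for doxycycline it moved KCNMA1 to 0.12 and KCNMB1 to 0.25. No doxycycline alternative brought a channel probe set to 1.5-fold (0 under each). With 3 arrays a group and 1 in the doxycycline groups, small changes of dim transcripts cannot be seen.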

Other observations

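Antisense partners of 2 channel genes are on the arrays. KCNMA1-AS1 (1569763_at), a transcript named for its position opposite KCNMA1, had 4.81, 5.29 and 4.71 with dexrazoxane and 4.91, 5.27 and 4.95 with vehicle, a difference of -0.11 ± 0.09 (SE, limma paired adjusted p = 0.671), with 4.48 on the doxycycline array and 4.44 on its vehicle array. The groups overlapped, and the probe set lay under the low-value filter. KCNMB2-AS1 (233205_at) had 3.29, 3.39 and 3.34 with dexrazoxane and 3.21, 3.13 and 3.00 with vehicle. It differed by 0.22 ± 0.09 (SE, limma paired adjusted p = 0.339) without overlap of the groups, at a level where the array floor lies. On the doxycycline array and its vehicle array it had the same value of 2.15.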
